A study of Mus musculus with 3 samples.

Results

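Galectins are a family of small animal lectins, and 8 of their genes, Lgals1, Lgals2, Lgals3, Lgals4, Lgals7, Lgals8, Lgals9 and Lgals12, were followed among 19935 genes measured in NMuMG, a line of mammary gland epithelium from the mouse. The members were taken by gene symbol, and the family was chosen because Lgals2 was lower than in mock in both MAFK clones by different amounts. Each member had 1 probe set annotated with its symbol alone, so no choice between probe sets was made. Because Lgals2 in the comparison with mock chose the family, the members' values are given as a description, with no test.

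RNA was measured on 3 Affymetrix arrays: cells with the empty pCAGIP vector (mock, n = 1) and 2 stable lines with pCAGIP-FLAG-MafK, clone 4 and clone 10 (MAFK, n = 2). All cells were NMuMG, carried that vector and grew in 10% serum with puromycin at 1 µg/ml. MAFK is a small MAF protein, a leucine zipper transcription factor that pairs with itself or with CNC proteins on DNA. Each MAFK line is 1 clone, while nothing in the labels says that mock is clonal, so effects of MAFK and of cloning cannot be told apart. Values are log2 RMA expression, and a difference of 1 is a 2-fold change.

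Galectins share a carbohydrate recognition domain that binds beta-galactosides, above all N-acetyllactosamine on glycoproteins. They have no signal peptide and leave the cell by a route outside the classical secretory pathway, so they act in the cytosol, on damaged vesicles and at the cell surface, where they crosslink glycoproteins into lattices. Prototype galectins (Lgals1, Lgals2, Lgals7) have a single such domain, the chimera galectin Lgals3 joins it to a proline- and glycine-rich tail, and tandem-repeat galectins (Lgals4, Lgals8, Lgals9, Lgals12) carry a pair of domains on one chain.

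The genes with the largest differences from mock in the family, Lgals2 and Lgals4, and the gene of the galectin ligand Lgals3bp are shown by the 250 bases before their transcription start, because MAFK binds DNA. The sequences are from RefSeq (GRCm38.p6), read 5′ to 3′ on the gene's strand. Capitals mark matches on either strand to the core TGCTGA of the MAF recognition element, the whole palindromic element, the antioxidant response element core TGACNNNGC, or the AP-1 site TGANTCA. The whole element contains both TGCTGA and TGANTCA.
Lgals2 (chr15:78855530-78855779, minus strand): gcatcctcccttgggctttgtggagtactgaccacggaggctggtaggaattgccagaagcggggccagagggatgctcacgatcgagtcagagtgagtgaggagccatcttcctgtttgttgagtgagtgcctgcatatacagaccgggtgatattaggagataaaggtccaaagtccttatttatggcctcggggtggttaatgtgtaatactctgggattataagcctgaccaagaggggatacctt
Lgals4 (chr7:28833544-28833793, plus strand): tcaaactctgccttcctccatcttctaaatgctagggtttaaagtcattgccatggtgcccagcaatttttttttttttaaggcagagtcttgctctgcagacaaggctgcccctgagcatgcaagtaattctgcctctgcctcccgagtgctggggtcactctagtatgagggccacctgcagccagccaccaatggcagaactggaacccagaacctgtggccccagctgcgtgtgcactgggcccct
Lgals3bp (chr11:118401960-118402209, minus strand): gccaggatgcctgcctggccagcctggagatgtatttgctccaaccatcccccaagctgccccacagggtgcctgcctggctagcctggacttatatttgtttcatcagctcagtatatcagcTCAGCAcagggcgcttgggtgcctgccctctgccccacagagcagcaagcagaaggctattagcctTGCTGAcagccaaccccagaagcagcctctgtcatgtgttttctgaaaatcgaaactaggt
The Lgals2 and Lgals4 windows held no match to any of these motifs. The Lgals3bp window held 2 matches to TGCTGA, starting 127 and 61 bases before the transcription start. The windows of B4galt4 and B3gnt3, glycan enzyme genes also lower than mock in both clones, were scanned too and held no match. Among 32851 promoter windows of this length, 16.1% held TGCTGA, 10.2% TGACNNNGC, 6.75% TGANTCA and 0.00609% the whole element. Windows of 6 of the 8 galectins were matched, and Lgals1 and Lgals12 were not. Of the other 4, Lgals7 held 1 match to TGACNNNGC and Lgals3, Lgals8 and Lgals9 held none. A match or its absence in this window describes its letters only.

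Of the 8 galectins, 2 were at least 2-fold lower than mock in both clones, Lgals2 and Lgals4, and none was at least 2-fold higher. Of all 19935 genes, 1.81% were that much lower in both clones and 1.19% that much higher. Since Lgals2 chose the family, nothing is read from the count. Clone 4 had a median difference over the 8 members of -0.30 and clone 10 of -0.08, beside 0 in each clone over all genes. Below mock in both clones lay 6 members, and 2 lay above. Of all 19935 genes, 3560 lay below mock in both clones, 6711 lay above and 6846 were equal on all arrays. From this split, too, nothing is read.

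**Figure D1:**
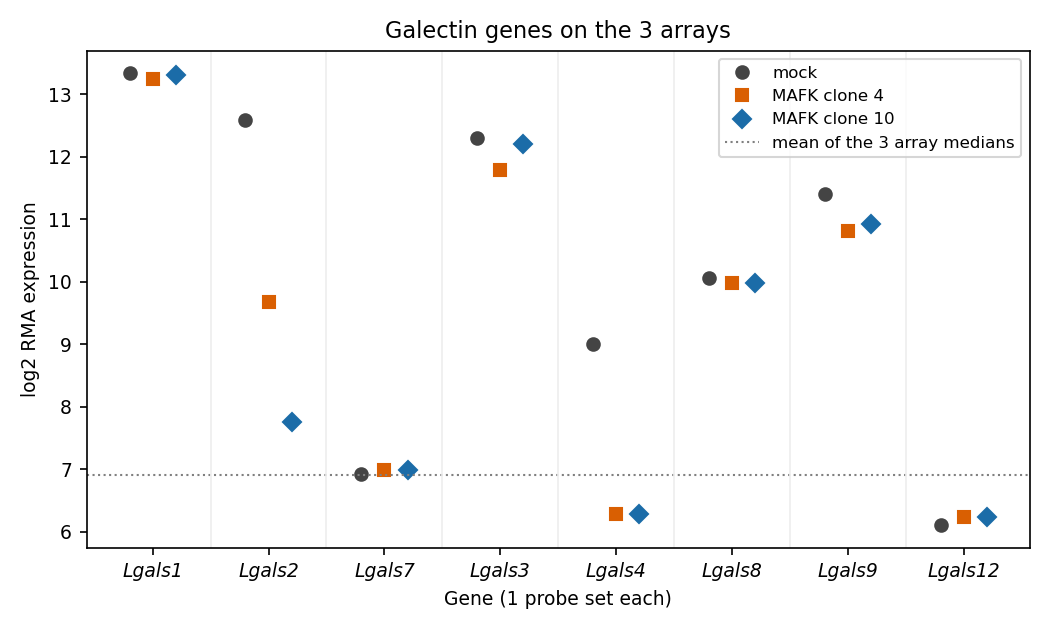
log2 RMA expression (vertical axis) of the 8 galectin genes (horizontal axis), with 1 point per array for mock, MAFK clone 4 and MAFK clone 10, and the mean of the 3 array medians dotted. Lgals2 differs between all 3 arrays (12.59, 9.68 and 7.75), Lgals4 is at 9.01 in mock and 6.29 in both clones, and the other 6 genes lie at most 0.59 from mock.

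Lgals2 encodes galectin-2, a prototype lectin best known from epithelium of the stomach and intestine. Its probe set (10430425) read 12.59 in mock against 9.68 in clone 4 and 7.75 in clone 10. Clone 4 was 7.49-fold lower than mock and clone 10 was 28.6-fold lower. The MAFK mean was 8.71 ± 1.37 (SD, n = 2), 14.6-fold below mock. The 3 values were thus well separated, with mock high, clone 4 between and clone 10 low. Fewer cells with Lgals2 RNA and less of it per cell cannot be told apart.

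Between the clones, Lgals2 was 3.82-fold lower in clone 10 than in clone 4, a log2 difference of -1.93. Of all genes 0.441% differed at least 2-fold between the clones, 44 lower in clone 10 and 44 higher. By size, 2 genes had a larger decrease from clone 4 to clone 10. From mock to clone 10, 4 genes had a larger decrease than Lgals2, and from mock to clone 4, 48 did. These ranks come from the values that chose the family. They describe the position of Lgals2 on these arrays.

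**Figure D2:**
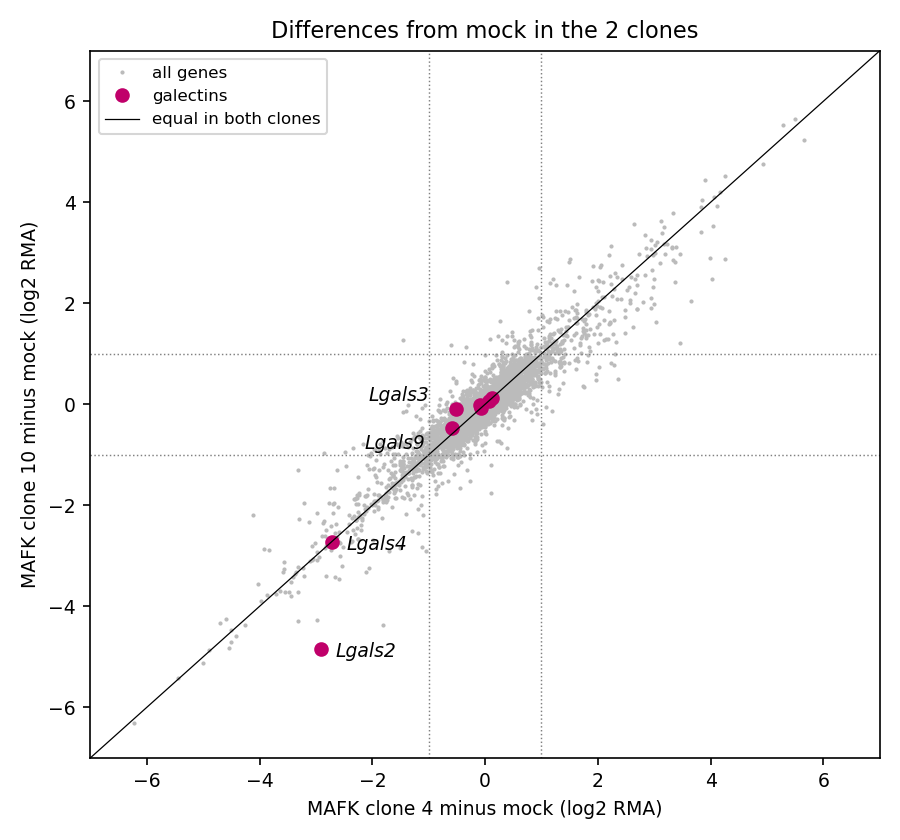
Difference from mock on the log2 RMA scale in clone 4 (horizontal axis) and clone 10 (vertical axis), with 1 grey point per gene for 19935 genes, galectins in magenta, a line of equal differences and dotted lines at 2-fold. Lgals2 lies below the line (-2.90 and -4.84), Lgals4 lies on it (-2.72 in both), and the other galectins lie near the origin.

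The other prototype galectins were close to mock. Lgals1, whose product galectin-1 is found in many cell types and is abundant in mesenchymal ones, read 13.33 in mock against 13.24 in clone 4 and 13.31 in clone 10. The 3 values of Lgals1 spanned under 0.10, and the clones averaged 13.27 ± 0.05 (SD, n = 2). Lgals7, the galectin gene of stratified epithelia such as skin, read 6.92 in mock and 6.98 in each clone. Its values sit near the array medians (6.89 to 6.93), so they do not show whether it was transcribed.

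Lgals3 encodes galectin-3, the chimera galectin of macrophages and many epithelia. It read 12.30 in mock against 11.79 in clone 4 and 12.20 in clone 10. The MAFK mean differed from mock by -0.30 ± 0.30 (SD of the clones, n = 2), about the size of the spread between them. Clone 4 was 1.42-fold lower than mock and clone 10 was 1.07-fold lower, so clone 10 lay nearer to mock than to clone 4. The mean difference of the 699 genes on chromosome 14, where Lgals3 lies, was -0.16 in clone 4 and -0.08 in clone 10. Its part in the value was not tested.

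Lgals4 encodes galectin-4, a tandem-repeat lectin of gut epithelium that binds sulfated glycolipids and takes part in apical sorting. Its probe set (10551626) read 9.01 in mock and 6.29 in each clone. Both clones were 6.60-fold lower than mock, so unlike Lgals2 the gene had the same value in both. The clone values lie below the array medians of 6.92 and 6.93, in the range where RMA compresses differences. The annotation of this probe set also lists an accession of Lgals6, a near-identical neighbour present in some mouse strains, and the probe set cannot separate them.

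Lgals9, the tandem-repeat galectin known as a ligand of the immune receptor TIM-3, was slightly below mock in both clones. It read 11.40 in mock against 10.81 in clone 4 and 10.93 in clone 10. The MAFK mean was 10.87 ± 0.08 (SD, n = 2), 1.45-fold below mock. Mock lay outside the range of the clones, as it did for every galectin. Lgals8, whose product marks ruptured vesicles for autophagy, read 10.06 in mock and 9.98 in each clone. Lgals12, a galectin of fat cells, read 6.10 in mock against 6.23 in clone 4 and 6.24 in clone 10, below the array medians throughout.

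Equal values in both clones, seen in 3 of the 8 galectins (Lgals4, Lgals7 and Lgals8), were common on these arrays: 55.5% of all genes had them. The SD of such a gene is 0, which is no measure of its true spread between clones.

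Lgals2 and Lgals1 lie close together on chromosome 15, as do Lgals4 and Lgals7 on chromosome 7, and the members of each pair differed in their distance from mock. Of the 10 measured coding genes nearest to Lgals2 in RefSeq order, 5 on each side, none differed 2-fold from mock in each clone. Their differences ran from -0.98 to 0.05, the lowest in Cdc42ep1, which lies beside Lgals2 and encodes an effector of the GTPase Cdc42. Cdc42ep1 read 10.09 in mock against 9.11 in clone 4 and 9.13 in clone 10, just inside 2-fold. The phosphatase gene Pdxp, between Lgals2 and Lgals1, read 8.51 in mock against 7.84 in clone 4 and 7.55 in clone 10.

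Around Lgals4 the 10 nearest genes differed from mock by -0.61 to 0.12, again with none 2-fold apart. Ech1, on the side of Lgals4 away from Lgals7, read 9.33 in mock against 9.45 in clone 4 and 9.33 in clone 10. Over whole chromosomes the mean differences were 0.02 in each clone on chromosome 15 (748 genes) and 0.00 in each clone on chromosome 7 (1734 genes).

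**Figure D3:**
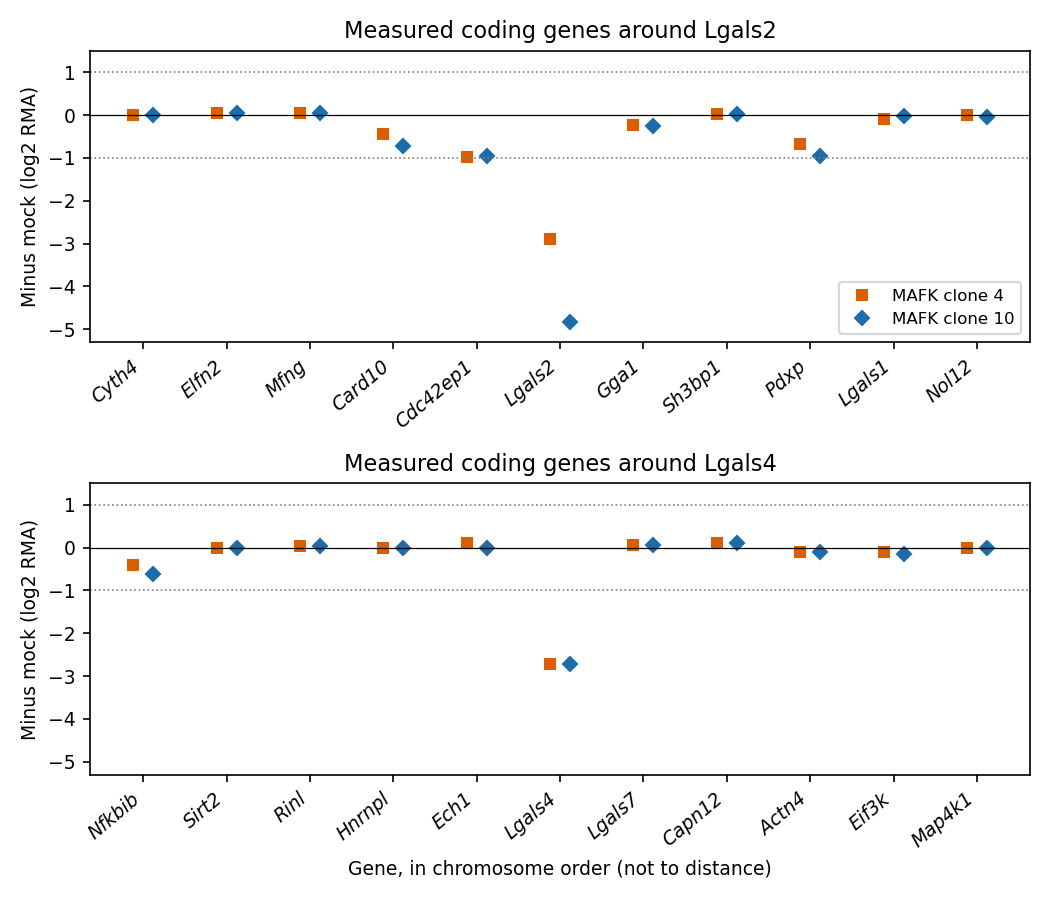
Difference from mock on the log2 RMA scale (vertical axis) in clone 4 and clone 10 for the 5 measured coding genes on each side of Lgals2 (upper) and Lgals4 (lower), in chromosome order and not to distance, with dotted lines at 2-fold. Lgals2 and Lgals4 are the only points of these 2 sets below the lower dotted line.

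The 5 genes whose pair of differences lay nearest to that of Lgals2, by straight-line distance over the 2 clones, were Plac8, Vamp7, Sel1l3, Car13 and Antxr1. Plac8, a gene named for the placenta but also expressed in epithelia, was nearest at a distance of 0.57. It read 10.74 in mock against 7.77 in clone 4 and 6.47 in clone 10. Vamp7, a vesicle fusion protein gene, was at 0.70, with 10.70, 7.37 and 6.41. Car13, a carbonic anhydrase gene, read 10.47, 8.67 and 6.11. Sel1l3, at a distance of 1.18, read 9.89, 6.44 and 6.10, and Antxr1, an anthrax toxin receptor gene, read 11.19, 7.87 and 7.48. All 5 were lower in clone 10 than in clone 4, which their choice by nearness to Lgals2 favours. The likeness rests on 3 arrays.

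Genes of galectin ligands and of the glycans that galectins bind were taken from 6 lists holding 53 symbols, of which 51 were measured. Of these, 3 fell and none rose, where a gene fell if each clone was 2-fold or more below mock and limma gave an adjusted p under 0.05 over all genes. The SE and p rest on the spread between the 2 clones, pooled with that of all genes whose clones differed. Where a gene's clones were equal, its SE comes from those other genes alone. No SE or p holds any spread of mock, which was measured once. Over all genes 0.762% fell and 0.401% rose. The lists were chosen with earlier results of these data known, so nothing is read from the count. The median difference of the 51 genes was 0 in each clone, as over all genes. The 3 were Lgals3bp, B4galt4 and B3gnt3, and St3gal5 was 2-fold lower without passing. With limma's treat at a fold of 1.2 Lgals3bp did not pass (limma adjusted p = 0.0841), and St3gal5 passed with the prior from all genes (limma adjusted p = 0.031) and with an intensity trend (limma adjusted p = 0.0262). The trend and treat fits took their prior from all genes as well. Of all genes 55.5% had equal clones and thus a variance of 0, so calls with that prior are less reliable. The other 47 differed from mock by -1.11 to 1.35 in a single clone.

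Among 15 binding partners, 1 fell. Lgals3bp encodes a secreted, heavily glycosylated ligand of galectin-1 and galectin-3. It read 12.05 in mock against 10.08 in clone 4 and 9.92 in clone 10, and it fell 4.12-fold with a difference of -2.04 ± 0.10 (SE; limma adjusted p = 0.0414). The clones lay close together and far from mock. The mucin gene Muc1, a carrier of galectin-3 ligands, read 7.26 in mock against 8.61 in clone 4 and 8.01 in clone 10 without passing (limma adjusted p = 0.271). Nrp1, the neuropilin gene, read 11.03, 9.93 and 10.29 without passing (limma adjusted p = 0.191). The lysosomal membrane genes Lamp1 and Lamp2 and the integrin genes Itgb1 and Itga3 lay at most 0.40 from mock.

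Of 11 measured genes of poly-N-acetyllactosamine synthesis, 2 fell. B4galt4 encodes a galactosyltransferase that adds the galactose of N-acetyllactosamine. It read 9.53 in mock and 6.46 in each clone, an 8.42-fold fall on the RMA scale (difference -3.07 ± 0.07, SE; limma adjusted p = 0.0256). As for Lgals4, both clone values are under the array medians, a range in which RMA folds are compressed. B3gnt3 encodes an N-acetylglucosaminyltransferase that extends core O-glycans. It read 10.49 in mock and 8.84 in each clone, a 3.14-fold fall (difference -1.65 ± 0.07, SE; limma adjusted p = 0.0346). Clones 4 and 10 did not differ in either gene, so each SE comes wholly from other genes. Such ties give the smallest SE of the fit and favour passing. B3gnt3 lies on chromosome 8, whose 955 genes had a mean difference of 0.12 in each clone. The part of the chromosome in the B3gnt3 value was not tested. B4galt1, the main galactosyltransferase of the family, read 10.84 in mock against 10.07 in clone 4 and 10.28 in clone 10, and B3gnt2, the main enzyme of chain extension, read 8.59, 8.59 and 8.60.

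No gene of N-glycan branching (9 measured) or of O-glycan cores (6 measured) rose or fell. Mgat5, whose product makes the branch that carries galectin-3 ligands, read 8.69 in mock and 8.37 in each clone. Mgat3, whose product adds the bisecting residue that limits branching, read 8.90 in mock against 7.97 in clone 4 and 8.05 in clone 10 (limma adjusted p = 0.0734). Gcnt1, the core 2 branching enzyme gene, read 6.01, 7.07 and 6.64 (limma adjusted p = 0.249).

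Of 8 sialic acid capping genes, none rose or fell. St3gal5, which encodes the synthase of the ganglioside GM3, read 9.90 in mock against 8.57 in clone 4 and 8.68 in clone 10, 2.43-fold lower (limma adjusted p = 0.0561). St3gal2, a sialyltransferase gene of O-glycans and gangliosides, read 9.44, 10.44 and 10.57 (limma adjusted p = 0.0734), at the edge of 2-fold in clone 4. St6gal1, whose alpha-2,6-linked sialic acid blocks binding of several galectins, read 9.71, 10.09 and 10.12. Both measured galectin relatives, Lgalsl and the lens gene Grifin, had equal values on all arrays.

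**Figure D4:**
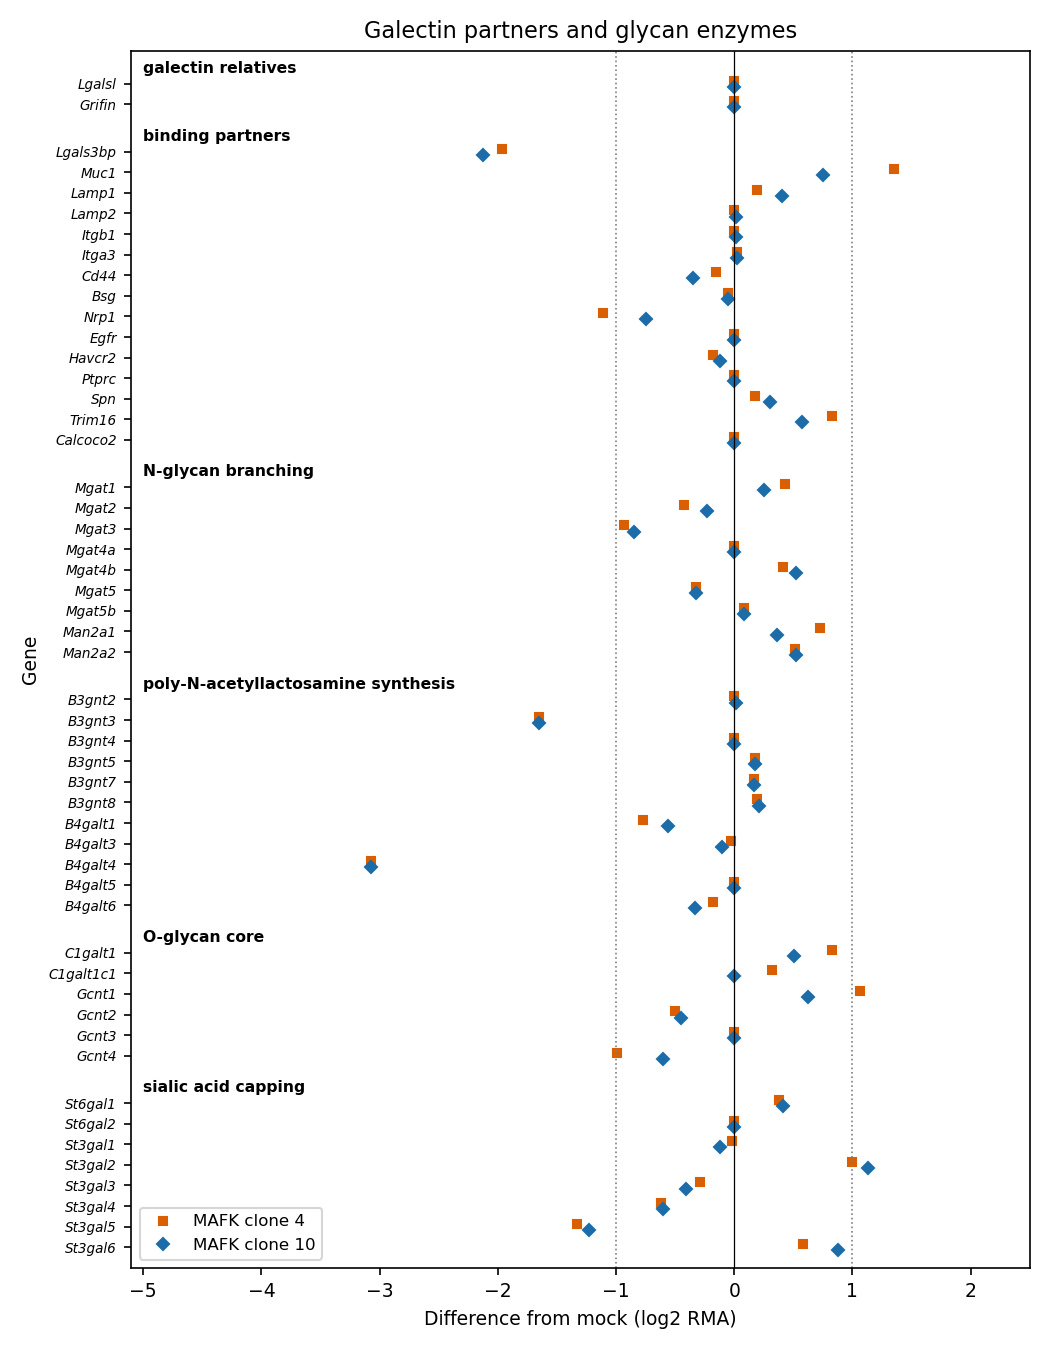
Difference from mock on the log2 RMA scale (horizontal axis) in clone 4 and clone 10 for the 51 measured genes of galectin relatives, binding partners and glycan synthesis (vertical axis, grouped by list), with dotted lines at 2-fold. Lgals3bp, B3gnt3, B4galt4 and St3gal5 lie beyond the lower line in both clones.

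The labelled cell type was checked against its markers. Krt8 (13.67 in mock, 13.18 in clone 4, 13.31 in clone 10), Krt18 (11.95, 10.92, 11.08) and Krt19 (11.99, 12.25, 12.08) were high on all arrays. Cdh1, the E-cadherin gene, was 11.35 in mock against 6.85 in clone 4 and 6.64 in clone 10, Epcam was low at 5.58 on all 3 arrays, and Cldn4 read 6.95 on each, near the array medians. The log2 values of the 6 epithelial markers summed to 61.5 in mock against 55.7 in clone 4 and 55.6 in clone 10, and most of that came from Cdh1, whose own differences were -4.50 and -4.71. The part of these differences in the Lgals2 and Lgals4 values was not tested. Of 26 markers of macrophages and other immune cells, fat cells, fibroblasts, endothelium and keratinocytes, 25 were measured. All their values lay between 5.08 and 8, and 17 were below the median on every array. The fibroblast markers went both ways: Dcn read 7.88 in mock against 5.76 in clone 4 and 6.06 in clone 10, while Col1a2 (7.14 in mock) was higher by 0.85 and 0.58 and Col1a1 (7.47 in mock) by 0.28 and 0.30. The immune marker Cd68 read 7.74 in mock and clone 4 and 7.88 in clone 10. Their sums ran from 37.4 to 37.8 for immune cells, 29.8 to 30.0 for fat cells, 33.1 to 34.3 for fibroblasts, 23.9 to 24.0 for endothelium and 32.9 to 34.0 for keratinocytes over the 3 arrays. The probe set of Mafk read 8.49 in mock against 8.74 in clone 4 and 8.59 in clone 10, and whether its probes match the transgene was not analysed here.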

How the data were processed

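The authors deposited log2 expression of each probe set, made with RMA per the submitters' processing notes. Its version, any filter and the genome build are not given in the sources used here. Per the labels' protocols, 100 ng of total RNA was labelled with an Ambion WT kit. The 3 arrays had 28815 probe sets each, with medians of 6.89 to 6.93. Their number limits the precision, since mock was measured once. Separate cultures are not stated in the labels, so p-values cover only the spread among these samples, which may be technical.

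The platform annotation gave 21780 probe sets 1 gene symbol, 1605 several and 5430 none, and only the first were named. Their Entrez identifiers were matched to current RefSeq symbols (GRCm38.p6) for 21689 probe sets. The highest-mean probe set stood for each of 19935 genes.

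Genes were tested with limma 3.58.1 in R 4.3.3 (lmFit, two-sided, Benjamini-Hochberg) over the 3 arrays, leaving 1 residual degree of freedom. The prior (1.93 degrees of freedom, SD 0.0694) came from the 8873 genes whose clones differed. The test was tried on simulated data of 19935 genes with 200 changed. Noise for all 3 simulated arrays was drawn from the differences between the 2 clones. The simulation thus held no added shift of mock from the clones, and false calls from such a shift are not counted. A gene was recovered only if it also met the 2-fold rule in both clones, which a log2 change of 0.5 falls short of. The test with that rule recovered 0% of changes of 0.5, with 0 false calls. It recovered 89% of changes of 1.5 with 22 false calls and 97% of changes of 2.5 with 29, so some calls may be false.

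Members, lists and tests were chosen with earlier results of these data known. Named were all galectins, Mafk, Lgals3bp, list members 2-fold apart in both clones (at most 5 per list) and the 5 genes nearest to Lgals2 (without predicted genes, small RNAs, receptors of smell and immune receptor segments). Other list genes, the neighbours of Lgals2 and Lgals4 and markers were chosen with values in view.

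Alternatives were a second quantile normalization, the mean of all probe sets, low genes left out, a fold of 1.5, each clone left out, and other limma priors, a trend or treat at a fold of 1.2. Both the trend and the treat run used the prior from all genes in place of the main prior.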

Additional observations from a re-analysis of the deposited data

How the results depend on the processing

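Lgals2 and Lgals4 were the 2 galectins apart from mock under each alternative of the fold rule. Of these, only the second quantile normalization could have dropped either gene. Each galectin has 1 probe set, both genes were above the array medians in mock, and a lower fold or a single clone asks less. Under the second quantile normalization the differences of the 8 galectins moved by at most 0.04 on the log2 scale. Without replicate 4 the Lgals2 difference was -4.84 and without replicate 10 it was -2.90. At a fold of 1.5, 1230 genes were apart from mock in both clones in place of 598, and 11 list genes in place of 4. With 1 clone left out, 5 to 7 list genes and 715 to 753 genes overall were apart. Counts of genes that passed limma and were 2-fold apart were 360 with the prior from all genes, 398 with an intensity trend, 159 with treat at a fold of 1.2 and 189 with the mean of all probe sets, in place of 232. Among list genes 2 to 4 passed over the alternatives: Lgals3bp did not pass treat at a fold of 1.2 (adjusted p = 0.0841, over a range of 0.0248 to 0.0841), and St3gal5 passed with the prior from all genes (adjusted p = 0.031) and with the trend (adjusted p = 0.0262, over a range of 0.0262 to 0.0935). Of all genes 55.5% had equal values in both clones, so a prior from all genes rests mostly on variances of 0. Its SD was 0.0105, and 0.0227 with the trend, against 0.0694 for the main prior. Calls made with it are thus less reliable than those of the main fit. The trend and treat runs also took their prior from all genes, so each changed the prior along with the option. The part of each in these changed calls was not tested. Leaving out a clone leaves limma no residual degree of freedom, so it was not run. No paired analysis was possible because mock and the clones share no replicate number. Signal near the array medians limits what can be said of Lgals7, Lgals12 and the clone values of Lgals4 and B4galt4.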
